A study of Mus musculus with 18 samples.

Results

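Hepatic stellate cells (HSC) of the mouse liver, grown for 7 days in Matrigel together with bile duct organoids, were compared gene by gene with HSC taken directly after isolation at day 0. The co-culture group (3 libraries) holds HSC that shared the gel with intrahepatic cholangiocyte organoids (ICO) carrying a dTomato tag and were sorted away from them at day 7. The day 0 group (3 libraries) holds HSC from healthy wild-type mice with no culture. These are 6 of the 18 bulk RNA libraries of the series, and 17020 of 35667 genes could be tested. HSC alone in Matrigel at day 7, HSC on plastic at day 7 and the co-cultured organoids (3 libraries each) were used here only to read this comparison. Per the labels, the medium mixed DMEM with serum and AdvDMEM/F12, and held the growth factors HGF, EGF and FGF10, the Wnt enhancer RSPO3, gastrin, B27, N2, nicotinamide and N-acetylcysteine. The organoids stood in for liver progenitor cells in the study's design. The labels give no age, sex or strain for the mice and do not tie any library to an animal or culture of its own, and the spread behind each p-value is then that among these libraries, which may be technical.

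HSC are the retinoid-storing pericytes that wrap the liver sinusoids. In a healthy liver they are quiescent, keep vitamin A in lipid droplets and answer vasoactive signals. After injury they become myofibroblasts, which contract, divide and lay down fibrillar collagen, and they also send growth factors to the epithelium beside them.

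Total counts were 6907479, 18764262 and 14846413 in co-culture and 16844657, 19206265 and 18844480 at day 0. The smallest co-culture library showed a count for 19334 genes, and the other 5 libraries for 20901 to 22230 genes. Transcripts typical of bile duct epithelium were present in the co-cultured HSC libraries. The median, over 12 cholangiocyte genes, of the level divided by that in the co-cultured organoids was 27.9%, 15.6% and 42% in the co-culture libraries, against 0.196%, 0.192% and 0.0427% at day 0. This organoid share was at most 0.116% on plastic. In HSC alone in Matrigel, which per the labels were kept apart from organoids, it was 30.2%, 13% and 2.9%. Those Matrigel values were taken against organoids cultured alone, which themselves stood at 80.4% to 83.9% of the co-cultured organoids on this measure. Mitochondrially encoded genes took 6.86%, 7.17% and 8.15% of counts in co-culture and 4.71%, 4.8% and 3.91% at day 0.

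Stellate transcripts were present in every library of both groups, at lower levels in co-culture. The 15 stellate and pericyte markers summed to 17030, 29270 and 16560 CPM, counts scaled to a common library total, in co-culture and to 102000, 95870 and 87570 CPM at day 0, and none of the 15 was at 0 in any of these libraries. Of the 15, 12 were lower and 2 higher in co-culture by the test described below, with a median log2 change of -1.66. In the co-cultured organoids the same list summed to 345 to 381 CPM. Cells of other types also differed between the groups. Hepatocyte markers summed to 372 to 767 CPM in co-culture and to 37000 to 38440 CPM at day 0, sinusoidal endothelial markers to 891 to 1343 CPM in co-culture and 9111 to 9692 CPM at day 0, and macrophage markers to 295 to 441 CPM in co-culture and 1185 to 1253 CPM at day 0. In bulk RNA, fewer cells of a type and less RNA per cell cannot be told apart.

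**Figure D1:**
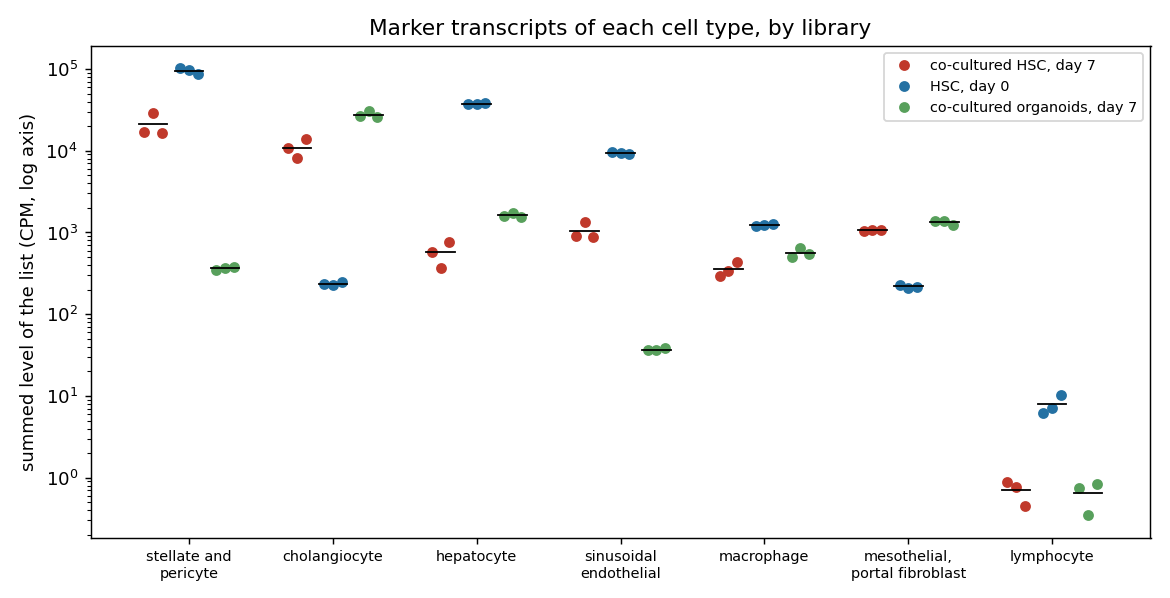
Summed CPM of 7 marker lists (x axis) in each library on a log axis, with co-cultured HSC left of day 0 HSC and the co-cultured organoids on the right. Points are libraries and bars are means of 3. Cholangiocyte transcripts reached 8263 to 13780 CPM in co-cultured HSC and 227 to 250 CPM at day 0, while hepatocyte and endothelial transcripts were highest at day 0.

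Because of the organoid transcripts, a gene was set aside as epithelial where its mean level in the co-cultured organoids was at or above its mean in co-cultured HSC. Of 17020 genes tested, 8148 were set aside by this rule and 8872 were not. Among those set aside, 216 were at 0 in all libraries of both co-cultured cell types, and 198 of these were lower than at day 0, so the rule also removes genes that no organoid read could have raised. The line runs through a dense part of the data, with 2275 genes set aside and 2044 genes not set aside within 1.2-fold of it. Among called genes of at least 50 CPM, just inside lay the proteasome subunit Psma5, with a mean of 190.9 CPM in both co-cultured cell types and 134.4 CPM in HSC at day 0. Just outside lay Lars, a leucyl-tRNA synthetase gene, with a mean of 135.5 CPM in co-cultured HSC and 54.9 CPM in HSC at day 0, against 135.4 CPM in the organoids.

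Over all genes tested, 4917 (28.9%) were higher and 4223 (24.8%) were lower in co-culture than at day 0, at an adjusted p under 0.05 in edgeR's quasi-likelihood test. The median log2 change was 0.09, and 61% of genes had co-culture and day 0 libraries that did not overlap. Of the 8872 genes not set aside, 2426 (27.3%) were higher and 2326 (26.2%) were lower. Of the 8148 set aside, 2491 (30.6%) were higher and 1897 (23.3%) lower. With the stricter line of 0.25 of the co-culture level, 2338 genes were left, of which 537 were higher and 953 lower. The shares of all genes tested are the background against which each group of genes below is read.

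**Figure D2:**
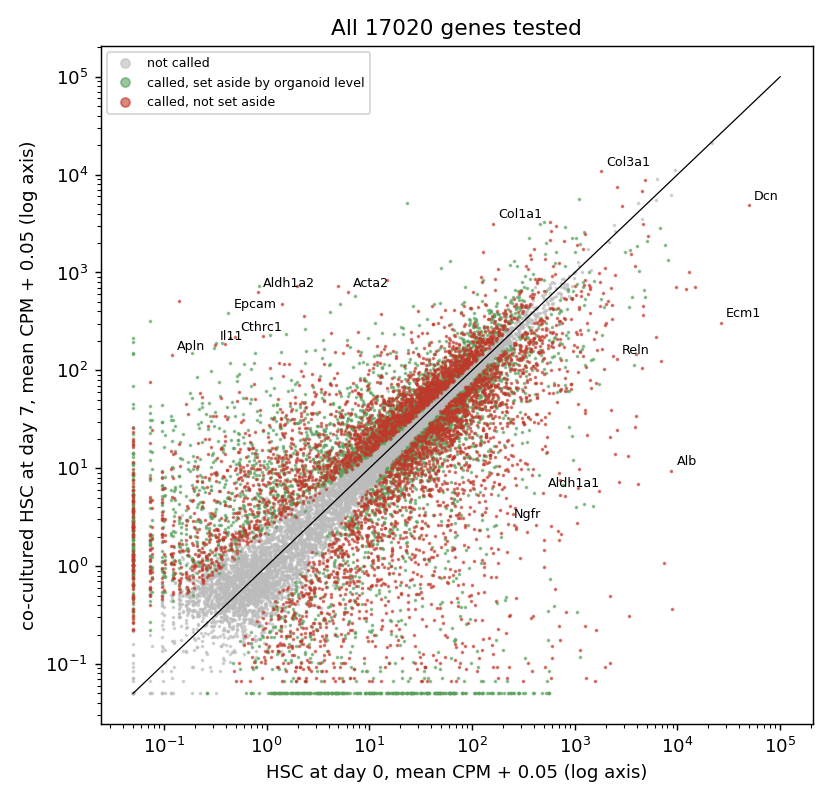
Mean CPM + 0.05 of each gene tested in day 0 HSC (x, log axis) and co-cultured HSC (y, log axis), with the line of equal level. Red genes passed the test and were not set aside, green genes passed and were set aside by their organoid level, and grey genes did not pass. Apln, Il11, Aldh1a2 and Cthrc1 stand at the upper left, and Ecm1, Ngfr and Aldh1a1 below the line at the right.

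Genes of the quiescent stellate cell were lower in co-culture almost throughout. Of 31 such genes tested, 27 fell and none rose, with a median log2 change of -3.64, and 25 of the 27 were not set aside. Reln, an extracellular glycoprotein used as a stellate marker, stood at 127, 137 and 125 CPM in co-culture and at 2575, 2745 and 2371 CPM at day 0. All 3 co-culture libraries lay far below all day 0 libraries, at a log2 change of -4.25 ± 0.29 (SE, adjusted p = 7.42e-08). Ecm1, a secreted matrix protein, had 268, 292 and 363 CPM in co-culture and 29080, 26370 and 23590 CPM at day 0 (log2 change -6.37 ± 0.31, adjusted p = 3.06e-09). The organoids held 283 to 327 CPM of Ecm1, so the low co-culture level is close to the level in organoids. Ngfr, the low-affinity nerve growth factor receptor, had 1.02, 2.53 and 4.42 CPM in co-culture and 232, 227 and 211 CPM at day 0 (-6.25 ± 0.38, adjusted p = 6.6e-08).

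The transcription factor genes Lhx2, Tcf21 and Hand2 were lower in co-culture. Lhx2, whose loss in mice leads to liver fibrosis, had 3.97, 8.69 and 4.99 CPM in co-culture and 39.1, 35.9 and 39.3 CPM at day 0 (-2.61 ± 0.32, adjusted p = 1.97e-05). Tcf21, a mesodermal factor named here after its values were seen, had 24.1, 39 and 31.5 CPM in co-culture against 371, 359 and 375 CPM at day 0 (-3.49 ± 0.21, adjusted p = 1.89e-08). Hand2, another mesodermal factor, was at 13.9, 18.9 and 15.3 CPM in co-culture and 29.5, 21.1 and 24.8 CPM at day 0. The groups did not overlap, but the fall was small (-0.59 ± 0.23, adjusted p = 0.0444). It lost its call without co-culture replicate 1 or 3 (adjusted p = 0.119 and 0.106), without day 0 replicate 1 or 3 (0.116 and 0.0789), with the replicate block (0.0521), with the stricter filter on low levels (0.0518) and with the organoid share subtracted (0.833).

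Des and Pdgfrb, both found in pericytes, were lower in co-culture. Des, the muscle type intermediate filament desmin, had 90, 134 and 77.9 CPM in co-culture and 254, 243 and 273 CPM at day 0 (-1.30 ± 0.19, adjusted p = 6.65e-05). Pdgfrb, the receptor through which platelet-derived growth factor drives stellate cell division, had 234, 283 and 145 CPM in co-culture and 486, 506 and 512 CPM at day 0. Replicate 3, with the highest organoid share, was the lowest, and all 3 lay below day 0 (-1.13 ± 0.20, adjusted p = 0.00029). With the organoid share as a covariate Pdgfrb stood at -0.46 (adjusted p = 0.0915), while with the share subtracted it kept its call.

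The largest falls within the quiescence list included secreted lectins and a receptor. Colec10, a collectin of the lectin complement pathway, had 6.91, 6.26 and 8.19 CPM in co-culture against 2678, 2790 and 2586 CPM at day 0 (-8.51 ± 0.62, adjusted p = 8.75e-07). Its relative Colec11 was named after its values were seen. Colec11 had 17.8, 11.5 and 10.8 CPM in co-culture against 3331, 3273 and 3375 CPM at day 0 (-7.92 ± 0.66, adjusted p = 2.78e-06). Vipr1, the receptor of vasoactive intestinal peptide, had 2.69, 5.33 and 9.21 CPM in co-culture and 1714, 1696 and 1800 CPM at day 0. Its co-culture libraries were all below 10 CPM and far from the day 0 range (-8.14 ± 0.63, adjusted p = 1.54e-06). Angptl6, an angiopoietin-like secreted factor, had 0.896, 2.85 and 8.51 CPM in co-culture and 1488 to 1531 CPM at day 0, and was set aside because the organoids held 3.38 to 5.24 CPM.

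A list of vasoactive receptors and cyclic GMP genes moved in the same direction. Of 27 tested, 23 fell and 3 rose (median log2 change -2.95), and 21 of the falls were in genes not set aside. Pth1r, the parathyroid hormone receptor, had 7.94, 7.34 and 7.23 CPM in co-culture and 733, 707 and 728 CPM at day 0 (-6.54 ± 0.28, adjusted p = 1.68e-09). Adra2b, an alpha-2 adrenergic receptor, had 8.32, 8.28 and 10.2 CPM in co-culture against 688, 676 and 748 CPM at day 0 (-6.25 ± 0.47, adjusted p = 9.43e-07), so that each receptor was nearly constant over the 3 libraries of a group. Rgs2, a regulator that shortens G protein signalling, rose to 88, 144 and 83.8 CPM in co-culture, against 11.9, 10.4 and 10.1 CPM at day 0 (3.34 ± 0.21, adjusted p = 2.55e-08).

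**Figure D3:**
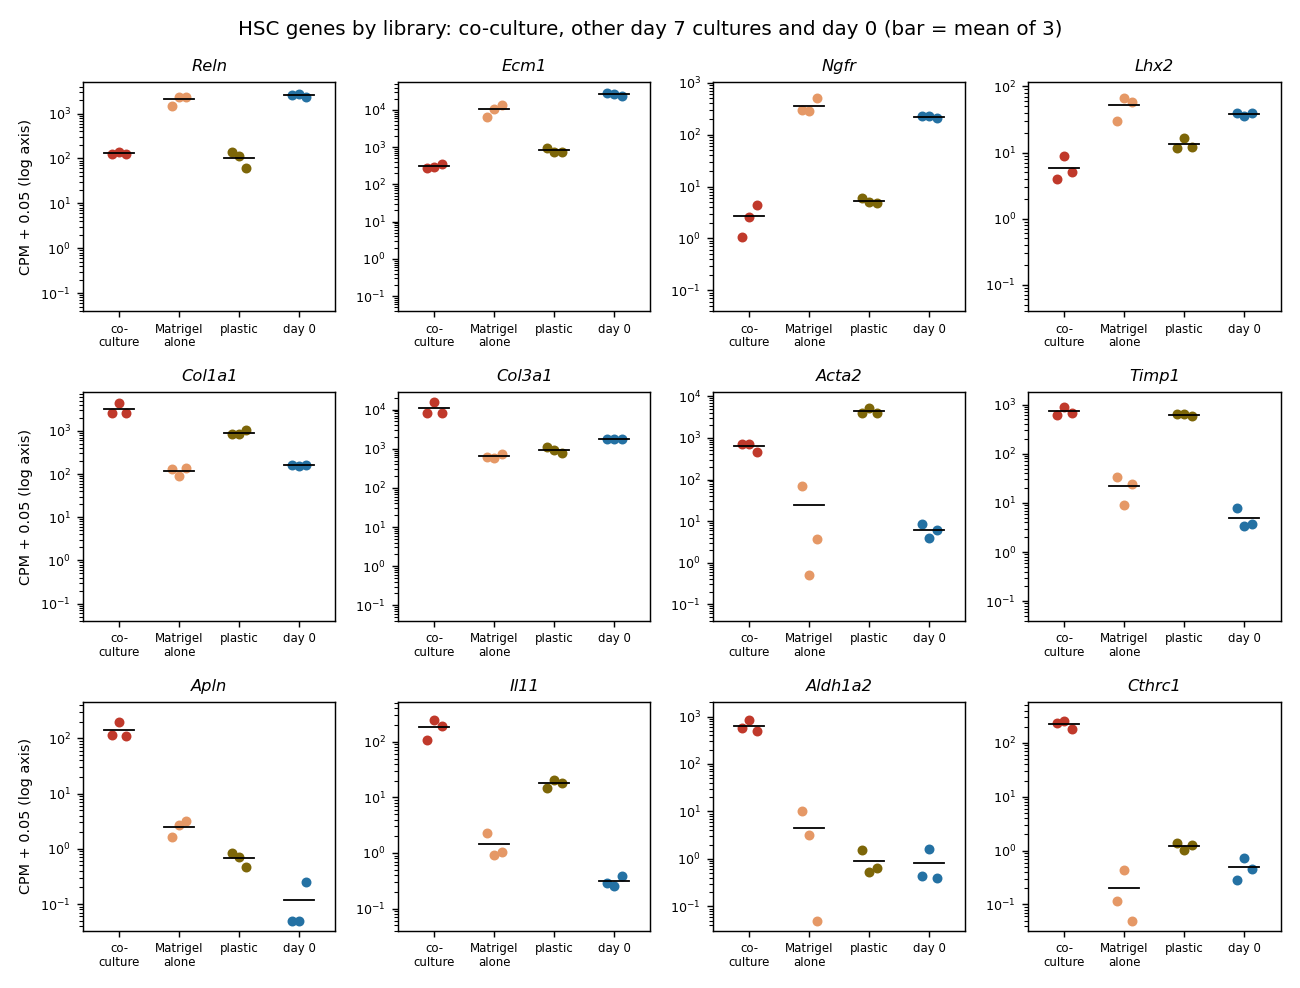
Levels (CPM + 0.05, log axis) of 12 HSC genes in each library of co-cultured HSC, HSC alone in Matrigel, HSC on plastic and HSC at day 0. Points are libraries and bars are means of 3. Reln, Ecm1, Ngfr and Lhx2 are lowest in co-culture or on plastic, Col3a1 is highest in co-culture, and Apln, Il11, Aldh1a2 and Cthrc1 are above every other group there.

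Retinoid genes split by enzyme. Of 25 tested, 6 rose and 11 fell (median log2 change -0.53), and 4 of the rises and 7 of the falls were in genes not set aside. Aldh1a2, which makes retinoic acid from retinal, had 563, 830 and 498 CPM in co-culture and 0.392, 1.57 and 0.343 CPM at day 0. All co-culture libraries lay above 490 CPM and all day 0 libraries below 2 CPM (9.69 ± 1.19, adjusted p = 8.71e-05), while the organoids held only 6.08 to 9.59 CPM. Aldh1a1, which catalyses the same step, went the other way, with 2.69, 8.07 and 5.89 CPM in co-culture against 459, 504 and 496 CPM at day 0 (-6.34 ± 0.27, adjusted p = 1.33e-09). Adh1, an alcohol dehydrogenase that oxidises retinol, had 2.18, 0.414 and 0.192 CPM in co-culture against 513, 498 and 486 CPM at day 0 (-9.42 ± 0.59, adjusted p = 2.94e-07). Adh1 is also abundant in hepatocytes, whose transcripts were lower in co-culture, and the part of these in its fall was not tested.

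Lrat, which esterifies retinol for storage, was lower but still abundant, with 520, 1018 and 526 CPM in co-culture and 2196, 2389 and 2147 CPM at day 0. Co-culture replicate 2, with the lowest organoid share, was the highest of its group, and the groups did not overlap (-1.66 ± 0.37, adjusted p = 0.00272). With the organoid share as a covariate the change was -0.80 (adjusted p = 0.264), while with the share subtracted Lrat kept its call. Dgat1, which can also esterify retinol, rose to 63.9, 61.1 and 42.2 CPM in co-culture, against 22.1, 22.4 and 22.4 CPM at day 0 (1.37 ± 0.17, adjusted p = 1.96e-05). Stra6, a retinol transporter, had 32.1, 19.6 and 40.8 CPM in co-culture and at most 0.0681 CPM at day 0, but the organoids held 87.8 to 119 CPM and it was set aside.

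Genes of lipid droplets and fatty acid handling fell more often than they rose, with 14 of 26 lower and 7 higher (median log2 change -0.72), and 8 lower and 4 higher with the organoid share as a covariate. Of the 12 not set aside, 6 were lower and 4 were higher. Cd36, a fatty acid transporter also found on endothelium and macrophages, was at 0, 0.414 and 0.64 CPM in co-culture and 104, 104 and 114 CPM at day 0 (-7.95 ± 0.81, adjusted p = 1.84e-05). Plin2, a coat protein of lipid droplets, was chosen after its values were seen and had 172, 178 and 165 CPM in co-culture and 604, 624 and 621 CPM at day 0 (-1.79 ± 0.13, adjusted p = 1.13e-07). The organoids held 155 to 175 CPM of Plin2.

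Smooth muscle and cytoskeletal genes did not move as 1 block. Of 30 tested, 14 rose and 8 fell (median log2 change 0.66), and 12 of the rises and all 8 falls were in genes not set aside. Acta2, the smooth muscle actin that marks the myofibroblast, had 696, 734 and 469 CPM in co-culture and 8.4, 3.95 and 6.04 CPM at day 0. The lowest co-culture library was more than 400 CPM above the highest day 0 library (6.75 ± 1.40, adjusted p = 0.00258). The organoids held 1.66 to 4.04 CPM. With the organoid share as a covariate the change was 4.70 (adjusted p = 0.0508), and with the share subtracted it was 7.25 (adjusted p = 0.00424).

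Cnn1 and Actg2 were also higher. Cnn1, the smooth muscle calponin, had 33.9, 39.5 and 29.9 CPM in co-culture and at most 0.681 CPM at day 0 (7.05 ± 1.05, adjusted p = 0.000336). Actg2, the enteric smooth muscle actin, had 24.7, 26.5 and 13.6 CPM in co-culture and 0, 0.681 and 1.17 CPM at day 0 (5.12 ± 0.81, adjusted p = 0.000351). Tagln, the transgelin gene that often accompanies Acta2, was chosen after its values were seen. It stood at 161, 166 and 158 CPM in co-culture and 91.7, 87.1 and 99.3 CPM at day 0, which did not pass the test (0.86 ± 0.74, adjusted p = 0.36). Smoothelin (Smtn), a protein of contractile smooth muscle, fell to 145, 183 and 139 CPM in co-culture, against 449, 448 and 440 CPM at day 0 (-1.47 ± 0.14, adjusted p = 1.19e-06).

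Fibrillar matrix genes rose more often than all genes tested, of which 28.9% rose and 24.8% fell. Of 37, 20 rose (54.1%) and 12 fell (32.4%), with a median log2 change of 1.19, and 36 were not set aside. With the organoid share subtracted 22 of the 37 rose and 9 fell. With it as a covariate 19 rose and 5 fell, where 2573 of all 17020 genes fell. Col1a1, the main chain of type I collagen, had 2534, 4329 and 2633 CPM in co-culture and 162, 153 and 165 CPM at day 0. Replicate 2 was the highest and the day 0 libraries were within 12 CPM of each other (4.35 ± 0.24, adjusted p = 8.25e-09). Col3a1, of type III collagen, had 8352, 15870 and 8240 CPM in co-culture and 1828, 1775 and 1819 CPM at day 0 (2.63 ± 0.26, adjusted p = 1.7e-06). The organoids held 10.4 to 23 CPM of Col1a1 and 19.6 to 48.4 CPM of Col3a1.

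Enzymes that finish and cross-link collagen were among the largest rises of the list. Lox, the lysyl oxidase that cross-links collagen, had 248, 509 and 332 CPM in co-culture and 2.27, 1.97 and 2.54 CPM at day 0 (7.37 ± 0.54, adjusted p = 9.97e-07). P4ha3, a prolyl hydroxylase subunit, had 8.71, 10.7 and 9.85 CPM in co-culture and at most 0.136 CPM at day 0 (7.00 ± 0.51, adjusted p = 1.06e-07). Col12a1, a collagen that decorates fibrils, had 135, 115 and 97.9 CPM in co-culture and 3.3, 0.613 and 0.892 CPM at day 0 (6.27 ± 0.49, adjusted p = 1.24e-06).

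Dcn, Lum and Col14a1 were lower in co-culture. Dcn, a small proteoglycan that binds collagen fibrils, had 4408, 6299 and 3857 CPM in co-culture and 53440, 49510 and 45250 CPM at day 0 (-3.30 ± 0.31, adjusted p = 1.33e-06). Col14a1, like Col12a1 a fibril-associated collagen, had 17.7, 30.4 and 25.2 CPM in co-culture and 2534, 2566 and 2571 CPM at day 0. The groups were about 100-fold apart on this scale (-6.65 ± 0.28, adjusted p = 9.45e-10). Lum, a relative of Dcn, had 831, 1638 and 1004 CPM in co-culture and 3916, 3963 and 3606 CPM at day 0 (-1.68 ± 0.44, adjusted p = 0.00632), a call lost with the organoid share as a covariate (-0.93, adjusted p = 0.349) and in the fit of all 18 libraries (-1.69, adjusted p = 0.0658).

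Basement membrane genes were mixed, with 9 of 21 higher and 5 lower (median log2 change 0.55), and only 3 of the rises in genes not set aside. The rises numbered 5 with the organoid share subtracted, and the falls 3 without co-culture replicate 3 or with the share as a covariate. The epithelial laminin chain Lama3 was higher in co-culture and set aside, with 12.7 to 23.4 CPM in co-culture and at most 0.549 CPM at day 0, against 58.8 to 81.8 CPM in the organoids. Col15a1, a collagen that ties basement membranes to the matrix around them, had 24.6, 31.8 and 14.3 CPM in co-culture and 0.706, 0.476 and 0.96 CPM at day 0 (5.08 ± 0.56, adjusted p = 5.17e-06). The organoids held at most 0.229 CPM of it. Lama2, the laminin chain of mesenchymal cells, had 8.45, 5.28 and 4.35 CPM in co-culture against 78.1, 88.4 and 74.1 CPM at day 0 (-3.72 ± 0.24, adjusted p = 2.85e-08).

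Matrix proteases and their inhibitors rose in 17 of 27 cases and fell in 4 (median log2 change 1.49), with 15 of the rises in genes not set aside. Timp1, which blocks matrix metalloproteinases, had 600, 902 and 680 CPM in co-culture and 7.77, 3.4 and 3.64 CPM at day 0 (7.26 ± 0.52, adjusted p = 6.96e-07). Serpine2, an inhibitor of thrombin and plasminogen activators, had 698, 972 and 517 CPM in co-culture and 2.04, 2.04 and 1.72 CPM at day 0 (8.61 ± 0.78, adjusted p = 9.81e-06). Both inhibitors were low in the organoids, at 17.4 to 21.1 CPM for Timp1 and 36.9 to 50 CPM for Serpine2. Serpinb2, another inhibitor of plasminogen activators, had 14.1, 22.1 and 15.6 CPM in co-culture and no count at day 0, which makes it at least 242-fold higher against a floor of 3 counts over the day 0 group. Mmp9, a gelatinase named after its values were seen, had 48.4, 83.8 and 46.6 CPM in co-culture and 0.863, 0.272 and 0.343 CPM at day 0 (6.98 ± 0.44, adjusted p = 2.58e-08). Reck, a membrane inhibitor of metalloproteinases, fell to 16.4, 40.5 and 24.1 CPM in co-culture, against 217, 212 and 223 CPM at day 0 (-2.95 ± 0.29, adjusted p = 3.93e-06).

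The largest rises by the naming rule, among genes not set aside and with at least 50 CPM, included Prss35, Apln, Aldh1a2, Il11, Aoc1, Asns, Cthrc1, Serpine2, Cxcl14, Bcat1 and Car12. Most of them code for secreted proteins or enzymes. Il11, a profibrotic cytokine of the interleukin 6 family, had 108, 247 and 190 CPM in co-culture and 0.235, 0.204 and 0.343 CPM at day 0 (9.44 ± 0.46, adjusted p = 7.98e-09). All co-culture libraries lay above 100 CPM and all day 0 libraries below 1 CPM, and the organoids held at most 2.15 CPM of Il11.

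Further secreted products followed the same pattern. Apln, the ligand of the apelin receptor, had 117, 201 and 112 CPM in co-culture and 0, 0 and 0.206 CPM at day 0 (10.86 ± 0.54, adjusted p = 7.96e-09). Cthrc1, a secreted protein of activated fibroblasts, had 230, 251 and 184 CPM in co-culture and 0.235, 0.681 and 0.412 CPM at day 0 (8.97 ± 0.39, adjusted p = 2.05e-09). Cxcl14, a chemokine, had 251, 737 and 440 CPM in co-culture and 1.1, 1.09 and 1.85 CPM at day 0 (8.49 ± 0.69, adjusted p = 3.54e-06). Replicate 1, which has the fewest counts of the series, was lowest of the co-culture libraries for Il11 and Cxcl14 but not for Apln or Cthrc1. Slit3, a guidance cue named after its values were seen, had 232, 276 and 165 CPM in co-culture and 0.785, 0.885 and 0.96 CPM at day 0 (8.03 ± 0.51, adjusted p = 2.3e-07).

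Of 33 cytokine and chemokine genes tested, 15 were lower (45.45%) and 10 higher (30.3%), with a median log2 change of -0.39. Of the 15 falls, 9 were in genes set aside. Among the 20 not set aside, 6 fell and 7 rose, close to the 26.2% and 27.3% of all genes not set aside. Cxcl10, an interferon-induced chemokine, had 0.64, 3.67 and 1.02 CPM in co-culture and 708, 684 and 730 CPM at day 0 (-8.42 ± 0.54, adjusted p = 3.3e-07). Cxcl9, a related chemokine, had no count in co-culture and 20.8 to 25.1 CPM at day 0, at least 329-fold lower against a floor of 3 counts over the co-culture group. Cxcl12, the chemokine that retains blood progenitors, was named after its values were seen and had 545, 1030 and 560 CPM in co-culture and 9901, 9583 and 9249 CPM at day 0 (-3.70 ± 0.27, adjusted p = 1.13e-07).

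Of 37 genes of TGF-beta and BMP signalling, 14 rose and 15 fell (median log2 change -0.16), and 9 fell with the organoid share as a covariate. Fst, a secreted trap of activins, had 136, 112 and 98.7 CPM in co-culture and 1.1, 1.7 and 1.44 CPM at day 0 (6.39 ± 0.75, adjusted p = 5.05e-05). Inhba, the activin A subunit that Fst traps, was named after its values were seen and had 234, 289 and 218 CPM in co-culture against 22.8, 26.1 and 28 CPM at day 0 (3.32 ± 0.28, adjusted p = 1.06e-06). Ligand and trap were thus both higher in every co-culture library. Tgfb2, a TGF-beta ligand, had 43.4, 56.9 and 46.8 CPM in co-culture against 2.9, 4.15 and 3.64 CPM at day 0 (3.83 ± 0.53, adjusted p = 0.000128), with 26.3 to 29.8 CPM in the organoids. Ltbp4, which holds latent TGF-beta in the matrix, had 36.4, 42.2 and 30.8 CPM in co-culture against 1331, 1281 and 1147 CPM at day 0 (-5.05 ± 0.30, adjusted p = 3.08e-08). Gdf2, named after its values were seen, which codes for bone morphogenetic protein 9 made by stellate cells, had 18.4, 23.6 and 19.6 CPM in co-culture and 2184, 2195 and 2285 CPM at day 0 (-6.70 ± 0.69, adjusted p = 1.92e-05).

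Among growth factors and their receptors, 19 of 44 rose and 16 fell (median log2 change 0.33), with 10 rises and 12 falls among the 28 not set aside. Hgf, the hepatocyte growth factor by which stellate cells act on epithelium, was named after its values were seen and had 378, 602 and 378 CPM in co-culture against 1788, 1827 and 1714 CPM at day 0 (-1.92 ± 0.27, adjusted p = 5.53e-05). Ntf3, the neurotrophin 3 gene, had 2.69, 3.78 and 2.69 CPM in co-culture against 82.2, 74.9 and 90.2 CPM at day 0 (-4.68 ± 0.68, adjusted p = 0.000215). Fgf10, a mesenchymal growth factor that was also a medium supplement, was named after its values were seen. It had 2.18, 2.69 and 1.15 CPM in co-culture and 0.157, 0 and 0 CPM at day 0, a rise of 5.20 ± 1.58 at low levels (adjusted p = 0.0141). The ligand genes Areg, Pdgfb and Pdgfc also rose but were set aside, since the organoids held 24.9 to 37.3, 31.5 to 32.3 and 50.7 to 65.3 CPM. Pdgfb and Pdgfc lost their calls with the organoid share subtracted (adjusted p = 0.291 and 0.626).

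Wnt genes rose in 13 of 25 cases and fell in 4 (median log2 change 0.89), with 9 rises among the 17 not set aside. Dkk2, a secreted Wnt antagonist, had 15.8, 27.1 and 10.6 CPM in co-culture and 0, 0.272 and 0 CPM at day 0 (7.49 ± 0.87, adjusted p = 1.04e-05). Wnt11, a ligand of the non-canonical pathway, had 10.6, 27.6 and 26.3 CPM in co-culture and 0.628, 0.408 and 0 CPM at day 0 (6.01 ± 0.86, adjusted p = 8.35e-05). Rspo3, the R-spondin that strengthens Wnt signals and was also a medium supplement, had 70.5, 142 and 90.9 CPM in co-culture against 555, 591 and 597 CPM at day 0 (-2.47 ± 0.28, adjusted p = 8.4e-06). Lgr5, an R-spondin receptor of liver organoids, was set aside with 18.1 to 85.9 CPM in co-cultured HSC and 120 to 156 CPM in the organoids. It was lowest in co-culture replicate 2, as the organoid share was. Of 16 Notch genes 3 rose and 9 fell (median log2 change -0.64), and no rise was in a gene not set aside. The rises numbered 1 with the organoid share subtracted and 0 with it as a covariate. Dll4, an endothelial Notch ligand that was set aside, had 0.256 to 0.621 CPM in co-culture against 48.5 to 57 CPM at day 0.

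Among integrins and other adhesion genes, 10 of 23 were higher and 8 were lower (median log2 change 0.26). The count was 6 higher with the organoid share subtracted and 5 lower with it as a covariate. Itga1, a collagen-binding chain, had 139, 168 and 111 CPM in co-culture against 1201, 1173 and 1207 CPM at day 0 (-3.04 ± 0.19, adjusted p = 2.57e-08). Itga8, a chain found on stellate cells and other pericytes, had 49.5, 69.1 and 37 CPM in co-culture against 418, 438 and 435 CPM at day 0 (-3.00 ± 0.24, adjusted p = 3.65e-07). Itga5, the fibronectin-binding chain, was named after its values were seen and had 381, 602 and 366 CPM in co-culture against 36.4, 36.3 and 49.5 CPM at day 0 (3.51 ± 0.24, adjusted p = 7.23e-08). The epithelial chains Itgb4 and Itgb6 rose but were set aside. Targets of the YAP/TAZ co-activators rose in 10 of 23 cases and fell in 7 (median log2 change 0.57), and 15 of the 23 were set aside. The rises numbered 6 with the organoid share subtracted and 5 with it as a covariate. The muscle ankyrin repeat gene Ankrd1, a commonly used target, had 200, 90.2 and 218 CPM in co-culture and at most 0.686 CPM at day 0, with 430 to 476 CPM in the organoids.

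Cell cycle genes were higher almost without exception. Of 38 tested, 35 rose and none fell (median log2 change 3.49), and 33 of the rises were in genes not set aside. Mki67, the proliferation antigen Ki-67, had 33.9, 29.5 and 23.9 CPM in co-culture and 1.57, 2.11 and 1.72 CPM at day 0, with 6.01 to 14.9 CPM in the organoids. The lowest co-culture library was more than 10-fold above the highest at day 0 (4.06 ± 0.33, adjusted p = 2.8e-07). Rrm2, the ribonucleotide reductase subunit of S phase, had 76.8, 119 and 76.7 CPM in co-culture against 2.59, 2.18 and 3.43 CPM at day 0 (5.10 ± 0.39, adjusted p = 7.03e-07). Bub1, a mitotic checkpoint kinase, had 23.4, 34 and 22.6 CPM in co-culture against 0.314, 0 and 0.343 CPM at day 0 (6.95 ± 0.58, adjusted p = 5.68e-07). With the organoid share subtracted 34 of the 38 were higher, and with it as a covariate 31 were.

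The p53 and senescence list rose in 12 of 19 cases and fell in 3 (median log2 change 1.05), but 15 of the 19 were set aside. The falls numbered 1 without co-culture replicate 2 and 0 with the organoid share as a covariate. Cdkn1a, the p21 inhibitor of the cell cycle, was not set aside and had 220, 311 and 301 CPM in co-culture against 58.5, 53.4 and 46.4 CPM at day 0 (2.44 ± 0.20, adjusted p = 3.55e-07). The organoids held 210 to 259 CPM of it.

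Genes of serine, asparagine and one-carbon metabolism rose together. Of 16 serine and one-carbon genes 12 rose and 2 fell (median log2 change 2.45), and all 8 that were not set aside rose. Mthfd2, a mitochondrial folate enzyme, had 92.2, 112 and 88.6 CPM in co-culture and 1.8, 2.45 and 2.13 CPM at day 0 (5.56 ± 0.17, adjusted p = 7.19e-11). Aldh1l2, another mitochondrial folate enzyme, had 48, 55.3 and 42.2 CPM in co-culture and 0.157, 0.545 and 0.686 CPM at day 0 (6.71 ± 0.43, adjusted p = 3.14e-08). The 2 falls were in the cytosolic enzymes Aldh1l1, at 29 to 35.6 CPM in co-culture and 226 to 261 CPM at day 0, and Shmt1, at 8.28 to 15.6 CPM in co-culture and 49.9 to 60.6 CPM at day 0, and both were set aside. Phgdh, the first enzyme of serine synthesis, had 125, 154 and 183 CPM in co-culture and 1.73, 0.681 and 1.58 CPM at day 0, and was set aside with 263 to 340 CPM in the organoids. Its change was 6.92 ± 0.62 as measured (adjusted p = 6.43e-06) and 6.19 ± 0.41 with the organoid share subtracted (adjusted p = 2.28e-07).

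Asns, asparagine synthetase, was in the list of the unfolded protein response, of which 7 of 26 genes rose and 13 fell (median log2 change -0.38). It had 219, 232 and 193 CPM in co-culture and 0, 0.817 and 0.343 CPM at day 0 (9.08 ± 0.42, adjusted p = 5.55e-09), with 150 to 171 CPM in the organoids. Chac1 and Trib3, known like Asns as targets of the stress factor ATF4, were the next largest rises and were set aside. The Asns promoter is shown because the gene had a larger rise than any gene of the serine and one-carbon list and holds the letters TGATGNAA, searched on both strands as the pattern bound by C/EBP and ATF factors. These letters were in the 250 bases before the start in 4 of 23 promoters of the list (17.4%) and in 3.53% of 27025 mouse promoters in the RefSeq table (build GRCm38.p6, another build than that of the counts). The 4 were Asns, Chac1, Atf3 and Herpud1, and Trib3 was not among them. While Asns and Chac1 rose, Atf3 was lower in co-culture (-2.32 ± 0.34, adjusted p = 0.000137) and was set aside. Capitals mark the match in the stretch at chr6:7693210-7693459 on the minus strand, 5′ to 3′.
Asns: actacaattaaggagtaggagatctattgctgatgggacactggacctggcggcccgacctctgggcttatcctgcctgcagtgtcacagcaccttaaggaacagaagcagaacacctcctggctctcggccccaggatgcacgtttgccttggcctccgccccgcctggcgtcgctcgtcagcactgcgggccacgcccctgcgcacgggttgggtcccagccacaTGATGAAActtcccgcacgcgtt

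Hypoxia and glycolysis genes rose in 25 of 26 cases and fell in none (median log2 change 2.66), but 21 of the 26 were set aside by their organoid level. Slc16a3, the lactate exporter, was one of the 5 not set aside, with 147, 329 and 267 CPM in co-culture and 9.02, 7.83 and 6.45 CPM at day 0 (5.04 ± 0.63, adjusted p = 8.5e-05). The organoids held 114 to 129 CPM of it, below every co-cultured HSC library. Vegfa, an angiogenic factor in the same list named after its values were seen, had 28.2, 40.9 and 56.1 CPM in co-culture and 2.59, 2.25 and 2.19 CPM at day 0 (4.20 ± 0.33, adjusted p = 1.98e-07), with 33.7 to 42.3 CPM in the organoids.

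Ldha and Slc2a1, set aside and named after their values were seen, stood at like levels in both co-cultured cell types. Ldha, lactate dehydrogenase A, had 2679, 3245 and 2825 CPM in co-cultured HSC and 774, 813 and 808 CPM at day 0 (1.92 ± 0.21, adjusted p = 4.03e-06), with 2660 to 3498 CPM in the organoids. Slc2a1, the glucose transporter GLUT1, had 388, 499 and 564 CPM in co-culture and 44.7, 47.2 and 52.7 CPM at day 0 (3.38 ± 0.23, adjusted p = 6.44e-08), with 544 to 672 CPM in the organoids. The organoid shares of the co-culture libraries were 27.9%, 15.6% and 42%. Each is a single value for all genes of a library, so the organoid part of these levels was not measured gene by gene. With that share subtracted, 22 of the 26 genes were higher and 1 lower, and Ldha stood at 1.91 ± 0.19 (adjusted p = 4.4e-06) and Slc2a1 at 3.29 ± 0.18 (adjusted p = 2.57e-08). With the share as a covariate 25 were higher. Car9, a carbonic anhydrase induced by low oxygen, lost its call on subtraction (adjusted p = 0.0774).

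**Figure D4:**
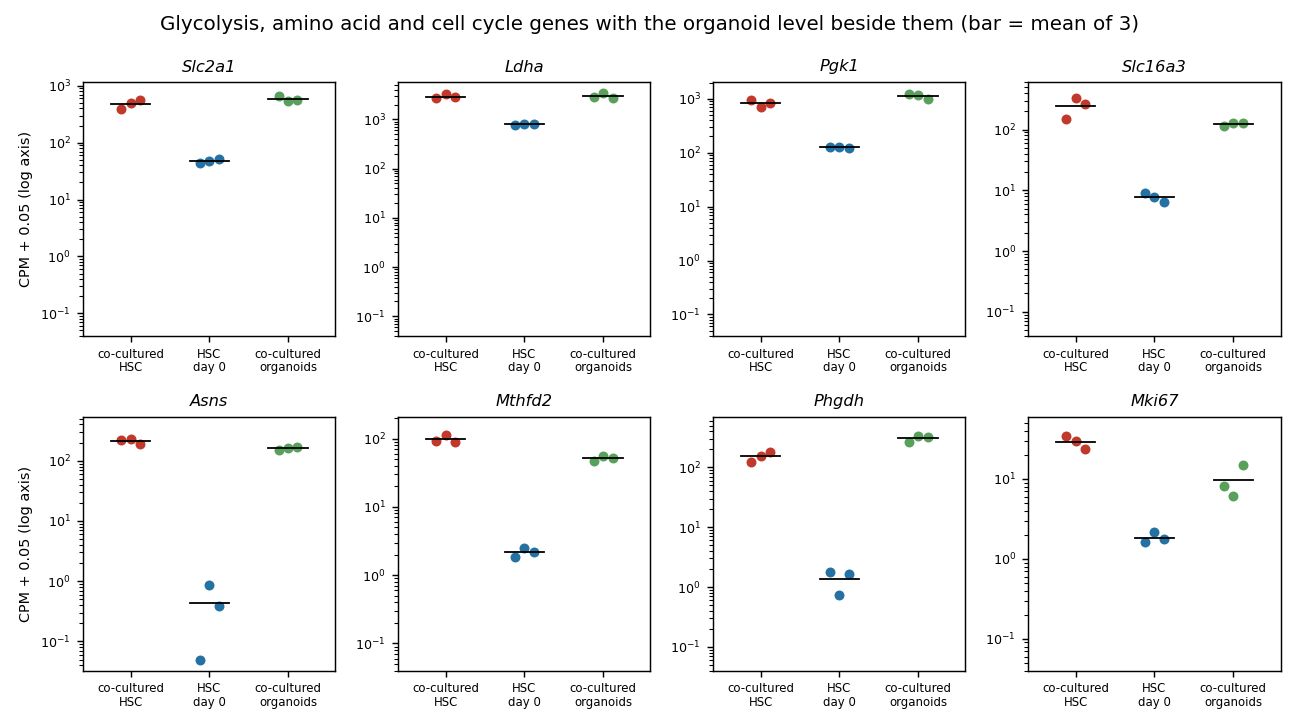
Levels (CPM + 0.05, log axis) of 4 glycolysis genes, 3 amino acid and one-carbon genes and Mki67 in each library of co-cultured HSC, HSC at day 0 and co-cultured organoids. Points are libraries and bars are means of 3. The co-cultured HSC lie near or below the organoids for Slc2a1, Ldha, Pgk1 and Phgdh and above them for Slc16a3, Asns, Mthfd2 and Mki67, and all 8 genes are lowest at day 0.

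The promoters of Slc16a3 and Ldha are shown because 1 was kept and the other set aside while both rose and both hold the letters ACGTG, the core of the hypoxia response element. These letters, searched on both strands of the 250 bases before the start, were in 14 of 25 promoters of the list found in the RefSeq table (56%) and in 16.6% of all 27025. In the sequences below, from chr11:120948817-120949066 and chr7:46845554-46845803, both on the plus strand of GRCm38.p6, capitals mark each match. Where the letters read CACGTG both strands match at overlapping positions.
Slc16a3: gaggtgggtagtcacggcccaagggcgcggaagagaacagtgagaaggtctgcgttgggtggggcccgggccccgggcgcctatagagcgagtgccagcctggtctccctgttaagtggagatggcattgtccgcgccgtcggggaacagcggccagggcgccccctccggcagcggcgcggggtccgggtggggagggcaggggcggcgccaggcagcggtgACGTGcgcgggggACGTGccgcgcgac
Ldha: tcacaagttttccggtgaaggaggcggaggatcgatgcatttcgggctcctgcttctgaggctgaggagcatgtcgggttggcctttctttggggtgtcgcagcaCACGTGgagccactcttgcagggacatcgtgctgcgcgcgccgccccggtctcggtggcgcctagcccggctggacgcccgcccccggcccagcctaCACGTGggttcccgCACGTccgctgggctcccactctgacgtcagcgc

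Cholesterol and fatty acid synthesis genes rose in 19 of 30 cases and fell in 2 (median log2 change 0.83), with 11 rises and no fall among the 16 not set aside. Scd2, a fatty acid desaturase, had 706, 888 and 781 CPM in co-culture and 134, 124 and 113 CPM at day 0 (2.73 ± 0.17, adjusted p = 2.8e-08). Cyp51, a sterol demethylase, had 125, 174 and 138 CPM in co-culture and 27.7, 31.9 and 29.1 CPM at day 0 (2.35 ± 0.19, adjusted p = 3.43e-07). The organoids held 615 to 687 CPM of Scd2 and 109 to 135 CPM of Cyp51, close to the co-cultured HSC.

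Interferon-stimulated genes were lower almost throughout. Of 28 tested, 27 fell and none rose (median log2 change -3.66), and all 23 that were not set aside fell. Ifit1, an antiviral RNA-binding protein, had 1.79, 5.12 and 3.07 CPM in co-culture and 245, 261 and 238 CPM at day 0 (-6.09 ± 0.38, adjusted p = 1.05e-07). Ifit3, its partner, had 2.43, 1.6 and 3.65 CPM in co-culture and 249, 264 and 260 CPM at day 0 (-6.61 ± 0.38, adjusted p = 4.13e-08). Both genes were under 6 CPM in every co-culture library and above 230 CPM in every day 0 library. HSC alone in Matrigel held 4.81 to 12.8 CPM of Ifit1 and 8.76 to 20.3 CPM of Ifit3, and HSC on plastic 3.37 to 4.45 and 7.28 to 8.45 CPM, so all day 7 cultures were far below day 0. Macrophage and endothelial transcripts, from cells that also respond to interferon, were lower in co-culture as given above, and their part in the fall was not tested.

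The promoters of Ifit1 and Ifit3 are shown because both genes fell together and both hold the interferon-stimulated response element, searched as GAAA, any 2 bases and GAAA again. On both strands of the 250 bases before the start, these were in 10 of 23 promoters of the list (43.5%) and in 3.04% of all 27025. Capitals mark the matches in the stretches at chr19:34640639-34640888 and chr19:34583279-34583528, plus strand of GRCm38.p6, where the letters appear in reverse complement.
Ifit1: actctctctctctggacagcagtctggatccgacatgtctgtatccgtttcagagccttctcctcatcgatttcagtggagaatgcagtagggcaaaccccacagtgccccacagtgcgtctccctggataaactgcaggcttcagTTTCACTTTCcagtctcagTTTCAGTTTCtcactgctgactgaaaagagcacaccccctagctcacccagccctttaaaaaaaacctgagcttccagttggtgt
Ifit3: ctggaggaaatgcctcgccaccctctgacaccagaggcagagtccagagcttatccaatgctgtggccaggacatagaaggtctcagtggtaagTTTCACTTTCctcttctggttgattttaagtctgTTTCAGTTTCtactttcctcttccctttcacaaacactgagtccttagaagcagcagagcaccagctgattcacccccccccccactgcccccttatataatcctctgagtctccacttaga

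Complement genes fell in all 15 cases tested (median log2 change -2.79), 9 of them in genes not set aside. C1ra, a serine protease of the C1 complex, had 39.2, 58.8 and 37.2 CPM in co-culture and 1038, 1072 and 1103 CPM at day 0 (-4.52 ± 0.30, adjusted p = 8.35e-08). C2, the protease of the classical pathway convertase, had 7.55, 17.2 and 11.9 CPM in co-culture and 273, 295 and 319 CPM at day 0 (-4.52 ± 0.35, adjusted p = 7.77e-07). Hepatocytes also make complement, and the part of the lower hepatocyte transcripts in these falls was not tested.

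Immediate-early genes fell in 16 of 24 cases and rose in 4 (median log2 change -1.38), and 17 of the 24 were set aside. Fosb, a partner in the AP-1 factor that responds within minutes to cell handling, had 103, 111 and 168 CPM in co-culture and 1558, 1430 and 1341 CPM at day 0 (-3.45 ± 0.33, adjusted p = 3.27e-06), with 300.2 to 373 CPM in the organoids. Fosl1, another AP-1 member, went the other way with 8.45, 9.62 and 8.96 CPM in co-culture against 0.392, 0.204 and 0.206 CPM at day 0 (5.11 ± 0.44, adjusted p = 5.06e-07). Of 14 heat shock and chaperone genes 10 fell and none rose (median log2 change -0.75), among them Dnajb1 at 76.4, 119 and 114 CPM in co-culture against 507, 479 and 530 CPM at day 0, which was set aside.

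Of 22 antioxidant genes 7 were higher (31.8%) and 6 lower (27.3%), close to the 28.9% and 24.8% of all genes tested. Sod3, the extracellular superoxide dismutase, had 30.1, 44.5 and 44.2 CPM in co-culture and 2408, 2027 and 2255 CPM at day 0 (-5.76 ± 0.25, adjusted p = 1.42e-09). Of the 13 mitochondrially encoded genes, 5 rose and 1 fell (median log2 change 0.55). The count of rises was 2 without day 0 replicate 1, 3 without day 0 replicate 2 or 3, and 2 with the organoid share as a covariate, and no gene fell without co-culture replicate 1.

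**Figure D5:**
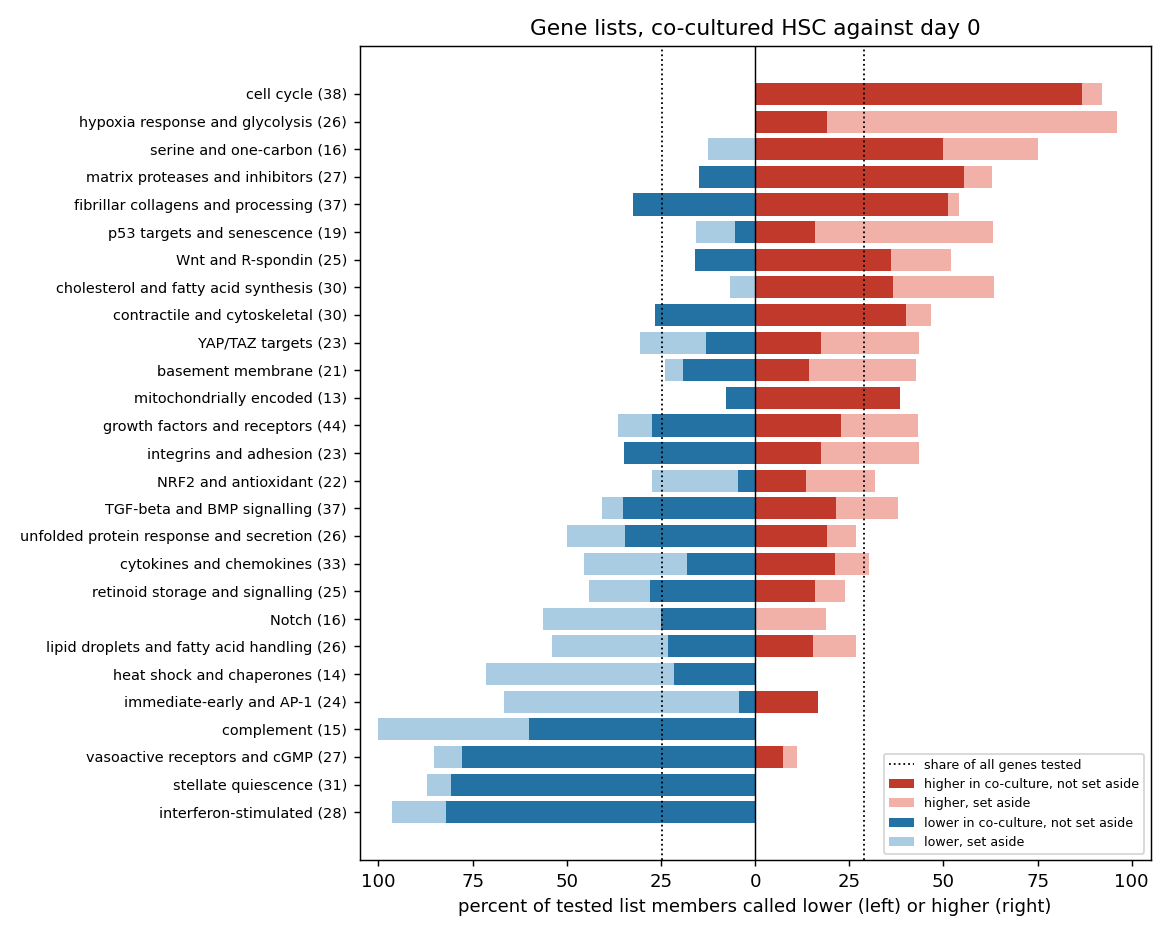
Percent of the tested members of 27 gene lists called lower (left) or higher (right) in co-cultured HSC than at day 0, ordered by median log2 change, with the number tested in brackets. Dark bars are members not set aside, pale bars those set aside, and dotted lines the shares of all genes tested, 24.8% lower and 28.9% higher. The interferon, quiescence, vasoactive and complement lists lie at the bottom and the cell cycle and hypoxia lists at the top.

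Markers of the other cell types of the liver made up the largest falls. All 32 hepatocyte markers tested and all 20 sinusoidal endothelial markers were lower in co-culture, as were 16 of 20 macrophage markers, or 7 with the organoid share as a covariate. Alb, serum albumin, had 21.9, 1.09 and 5.25 CPM in co-culture and 8735, 8503 and 8917 CPM at day 0 (-9.90 ± 1.38, adjusted p = 0.000211). The 12 largest falls by the naming rule (Bhmt, Fbp1, Slco1b2, Ces1c, Slc27a5, Hrg, Sult2a8, Car3, Mug1, Dmgdh, Agmat and Mtarc1) are known for high levels in hepatocytes. Bhmt, a methionine cycle enzyme, had 0, 0.207 and 0.064 CPM in co-culture and 1115, 1135 and 1157 CPM at day 0 (-13.12 ± 0.53, adjusted p = 2.01e-09).

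Clec4f, the lectin that defines mouse Kupffer cells, had no count in co-culture and 230.1, 240.4 and 248 CPM at day 0, at least 3417-fold lower. Lyz2, the macrophage lysozyme, had 97.5, 150 and 153 CPM in co-culture and 170, 170 and 177 CPM at day 0 and did not pass the test (-0.32 ± 0.44, adjusted p = 0.57). Dnase1l3, an endothelial and macrophage nuclease, had 0.256, 0.259 and 0.512 CPM in co-culture and 647, 623 and 635 CPM at day 0, and was set aside at these low levels. Plvap and Eng, also on the endothelial list, kept 383 to 588 CPM and 404 to 620 CPM in co-culture against 4410 to 4950 CPM and 1993 to 2027 CPM at day 0. Of 18 mesothelial and portal fibroblast markers 5 rose and 8 fell, and 5 fell without co-culture replicate 1, co-culture replicate 2 or day 0 replicate 3. Msln, mesothelin, had 300, 121 and 300 CPM in co-culture and 12.2 to 13.9 CPM at day 0, with 646 to 769 CPM in the organoids, and was set aside.

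Because the largest falls fell on hepatocyte genes, falls were also listed for genes that HSC alone in Matrigel still held at 100 CPM or more, a rule chosen after the values were seen that 379 genes met. The first was Fcna, ficolin A, with 3.84, 6.57 and 10.2 CPM in co-culture and 4131, 4062 and 4108 CPM at day 0 (-9.13 ± 0.39, adjusted p = 1.42e-09). HSC alone in Matrigel held 358, 505 and 620 CPM of it, where hepatocyte markers summed to 493 to 811 CPM. Endothelial markers summed to 3042 to 4765 CPM and macrophage markers to 2913 to 3813 CPM in those Matrigel libraries, both above co-culture, and their part in the level of Fcna was not tested. Mamdc2, a secreted proteoglycan, had 0, 0.569 and 3.71 CPM in co-culture and 496, 493 and 515 CPM at day 0 (-8.26 ± 0.71, adjusted p = 5.54e-06), against 220, 326 and 356 CPM in HSC alone in Matrigel. Adamts13, the protease of von Willebrand factor made by stellate cells, had 0, 1.4 and 4.03 CPM in co-culture and 495, 498 and 508 CPM at day 0 (-7.90 ± 0.77, adjusted p = 1.67e-05), and 122, 186 and 171 CPM in HSC alone in Matrigel. On plastic these genes were low too, at means of 17.85 CPM for Fcna, 3.135 CPM for Mamdc2 and 1.677 CPM for Adamts13. Co-culture was lower than plastic for Fcna (-1.36 ± 0.29, adjusted p = 0.0025). Mamdc2 and Adamts13 did not differ past the threshold (adjusted p = 0.274 and 0.826).

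The day 7 level in co-culture was set against the other day 7 cultures for the genes above. Against HSC alone in Matrigel 2949 genes (17.3%) were higher and 2341 (13.8%) lower in co-culture, and against plastic 3901 (22.9%) were higher and 3338 (19.6%) lower. These comparisons share the co-culture libraries with the one against day 0. HSC alone in Matrigel carried an organoid share of 30.2%, 13% and 2.9%, taken against organoids cultured alone. Their macrophage markers summed to 2913 to 3813 CPM. The part of either in the differences was not tested.

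Co-cultured HSC were lower than HSC alone in Matrigel for most quiescence genes, with 25 of 31 lower and 2 higher. Against plastic only 9 of the 31 were lower and 4 were higher, where 19.6% of all genes tested were lower. Reln was at 1465, 2388 and 2340 CPM in HSC alone in Matrigel, and co-culture was lower by 3.95 ± 0.29 on the log2 scale (adjusted p = 5.92e-07). On plastic it was at 139, 112 and 61.8 CPM, and the difference of 0.30 ± 0.26 did not pass the test (adjusted p = 0.369). Ngfr was at 295, 279.7 and 499.6 CPM in HSC alone in Matrigel, against which co-culture stood at -6.94 ± 0.39 (adjusted p = 1.69e-07).

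For contractile genes 22 of 30 were higher in co-culture than in Matrigel alone, while 23 were lower than on plastic. Acta2 had 68.4, 0.462 and 3.75 CPM in HSC alone in Matrigel and 3952, 5288 and 4021 CPM on plastic. Co-culture was higher than Matrigel alone (4.78 ± 1.26, adjusted p = 0.0175), and the difference from plastic did not pass the test (-2.81 ± 1.14, adjusted p = 0.0747) although the groups did not overlap. Tpm1, a tropomyosin named after its values were seen, was lower in co-culture than on plastic (-2.37 ± 0.21, adjusted p = 3.37e-06), with 450 to 690 CPM in co-culture and 2664 to 3405 CPM on plastic.

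Of the 37 fibrillar matrix genes, 24 were higher and 6 lower in co-culture than in Matrigel alone, and 16 were higher and 9 lower than on plastic. Col1a1 had 134, 90.3 and 137 CPM in HSC alone in Matrigel and 862, 858 and 1030 CPM on plastic, against which co-culture was higher by 4.76 ± 0.24 (adjusted p = 3.56e-08) and 1.77 ± 0.21 (adjusted p = 3.29e-05). Col3a1 had 614, 588 and 750 CPM in Matrigel alone and 1144, 946 and 762 CPM on plastic, and co-culture was higher by 4.10 ± 0.27 (adjusted p = 2.37e-07) and 3.49 ± 0.27 (adjusted p = 8.17e-07). Timp1 did not differ past the threshold from plastic (0.21 ± 0.39, adjusted p = 0.691), where it had 585 to 650 CPM.

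Cthrc1, Il11 and Aldh1a2 were higher in co-culture than in both other cultures. Cthrc1 was at most 0.396 CPM in Matrigel alone and 0.961 to 1.32 CPM on plastic, with co-culture higher than plastic by 7.57 ± 0.34 (adjusted p = 2.05e-08). Il11 was at 0.857 to 2.27 CPM in Matrigel alone and 14.8 to 20.4 CPM on plastic, and co-culture was higher than plastic by 3.33 ± 0.30 (adjusted p = 5.52e-06). Aldh1a2 was at most 10 CPM in any library of either culture, with co-culture higher than plastic by 9.54 ± 1.16 (adjusted p = 0.000179). Cxcl14 and Lox were not, with 218 to 339 CPM and 265 to 285 CPM on plastic (differences 0.81 ± 0.47 and 0.39 ± 0.39, adjusted p = 0.192 and 0.447).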

How the data were processed

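Bulk RNA was read from 18 Smart-seq2 libraries, per the labels' protocols. The authors deposited estimated counts per gene, which need not be whole; kallisto 0.46.1, DESeq2 1.36.0 and the build GRCm39 appear in the submitters' processing notes, without roles. The annotation release is not given in the sources used here, and reads of near-identical genes may be divided among them.

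Here the deposited estimated counts of 35667 genes were rounded and the 12 HSC libraries were fitted together by edgeR 4.0.16 under R 4.3.3. TMM scaled the libraries, filterByExpr removed low genes, and the quasi-likelihood test was run in its robust form. Benjamini-Hochberg adjustment covered all 17020 genes tested, with a threshold of 0.05. Alternatives used DESeq2 1.42.0. Levels are CPM, computed here with TMM factors of all 18 libraries. The SE is the absolute log2 change divided by the square root of F, so it is no error apart from the test. Folds against a group at 0 use a floor of 3 counts over the group (0.0714 CPM at day 0, 0.0701 CPM in co-culture), which covers counting error only. The organoid share uses 12 cholangiocyte genes that reach 100 CPM in organoids and stay under 5 CPM in HSC at day 0 and on plastic. Its reference is the co-cultured organoids, or for HSC alone in Matrigel the organoids cultured alone. A check of the fit on simulated counts changed few genes, by modest folds, and added no organoid transcripts. It does not cover shifts as broad as those between co-culture and day 0.

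The comparison, its members and the 34 gene lists (827 genes) were chosen with earlier results of these data known. The text names the 12 largest rises and 12 largest falls among genes that passed the test, were not set aside, belonged to no marker list of another cell type, reached 50 CPM in the group where they were higher, and whose groups did not overlap. It adds up to 3 called genes per list and direction with at least 5 CPM, 12 stellate genes whatever their result, and 3 markers per list; other names are given as chosen after their values were seen. Some genes that met the rule are not reported here. Promoter sequences are RefSeq's, from GRCm38.p6, and figures were drawn with matplotlib 3.10.9. Alternatives covered scaling, filters, libraries in the fit, the replicate block, the organoid share and each replicate left out.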

Additional observations from a re-analysis of the deposited data

Results flagged for a closer look

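Col3a1 changed in opposite directions in different cultures. Its log2 change from day 0 was 2.63 in co-culture, against -1.47 in HSC alone in Matrigel (adjusted p = 0.000388) and -0.86 on plastic (adjusted p = 0.00777). The difference between co-culture and Matrigel alone was 4.1 (adjusted p = 2.37e-07), and between co-culture and plastic 3.49 (adjusted p = 8.17e-07), each tested directly between the day 7 libraries. It was higher in 3 of 3 co-culture libraries than in any other HSC library.

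Hand2 also moved in opposite directions, by -0.59 in co-culture and 1.06 in HSC alone in Matrigel (adjusted p = 0.00217), a difference of -1.64 (adjusted p = 0.000136). The fall against day 0 lost its call under several alternatives, given with the stellate transcription factors above.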

How the results depend on the processing

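Counts of called genes rest mostly on how organoid transcripts were handled. For all genes against day 0, the organoid share as a covariate gave 2606 higher and 2573 lower genes, where the fit without it gave 4917 and 4223; against plastic it gave 1872 higher and 1717 lower. Of the genes not set aside, 1264 were then lower. Setting genes aside at 0.25 of the co-culture level left 2338 genes, 537 of them higher and 953 lower. At the day 0 level it left 8862 genes, 634 of them higher and 4083 lower. A fit of only the 6 libraries compared gave 1605 genes higher than in Matrigel alone. The line at the day 0 level keeps only genes that were higher at day 0 than in the organoids. The other lines use the co-culture level. The balance of higher and lower genes left thus depends on the line itself. The cause of the other moves was not tested. Leaving out 1 library of the groups compared gave 3954 to 4810 higher and 3857 to 4155 lower genes against day 0, 1997 to 2357 and 2087 to 2365 among genes not set aside, 2038 to 3607 and 1748 to 2492 against Matrigel alone, and 3262 to 3650 and 2828 to 3363 against plastic. With the replicate block 4653 genes were higher and 4092 lower. Same-numbered libraries of co-culture and day 0 correlated at -0.0317, -0.00716 and 0.00164 in their deviations from the group means. Whether the numbers pair the libraries cannot be told from this, since organoid share and depth also differ among the co-culture libraries. Direction reversed with the organoid share subtracted for Gsr (-1.31, adjusted p = 0.178), Krt8 (-12.7, adjusted p = 0.00017), Lyz2 (0.22, adjusted p = 0.713) and Cd14 (-0.75, adjusted p = 0.628). Of these only Krt8 passed the test, and counts below 0 after subtraction were set to 0. Direction also reversed with the share as a covariate for Hand2 (0.0461, adjusted p = 0.941). Without co-culture replicate 2 it reversed for Gas1 (-0.143, adjusted p = 0.649), which ranged up to 0.528 with another library left out. Single genes were followed for 213 genes, which are those named by the rule and those in lists of large changes made after values were seen. Of the 213, 35 lost the call with the covariate, and 20 of the 210 that could be tested did with subtraction. Those lost with subtraction include Lama3, Itgb4, Itgb6 and Lgr5. In the other alternatives at most 3 genes lost the call. Co-culture replicate 1 has the fewest counts, which limits what low genes can show.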

Other observations

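Runx1, Vcan and Ch25h rose in co-culture and were picked after their values were seen. Runx1, a transcription factor of blood and fibroblast development, had 52.5, 49.9 and 50.9 CPM in co-culture and 0.942, 1.09 and 1.72 CPM at day 0 (log2 change 5.39 ± 0.35, adjusted p = 3.4e-08), with 38.6 to 48.9 CPM in the organoids. Vcan, a large matrix proteoglycan, had 101, 119 and 99.4 CPM in co-culture and 0.471, 2.04 and 0.549 CPM at day 0 (6.72 ± 0.44, adjusted p = 1.42e-07), with at most 1.32 CPM in the organoids. Ch25h, which makes the oxysterol 25-hydroxycholesterol, had 57.2, 93.2 and 64.8 CPM in co-culture and 0.392, 1.09 and 0.617 CPM at day 0 (6.69 ± 0.44, adjusted p = 8.19e-08).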
